A study of Homo sapiens with 3 samples.

Results

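The genes described here make cholesterol and fatty acids, or set how much of either is made. They were chosen by symbol: 34 genes, of which 17 encode enzymes of the sterol pathway, 6 control the pathway or carry sterols, and 11 act on fatty acids. A total of 33 of the 34 had a row under their symbol among the 22499 rows with a symbol in the count tables, and ACACA, the carboxylase that starts fatty acid synthesis, was not analysed here because no row carried that symbol. The groups were kept apart throughout, and each gene was followed across 2 lineages, 2 kinds of culture and the phases of the cell cycle.

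Single-cell RNA was measured in spheroids of CAMA-1, an estrogen receptor-positive human breast cancer cell line. The sensitive lineage was the parental line labelled with the fluorescent protein mVenus, and the resistant lineage had been grown under ribociclib, an inhibitor of the cell cycle kinases CDK4 and CDK6, until it tolerated the drug, and carried mCherry. Spheroids of 100% sensitive cells, 50% of each lineage or 100% resistant cells were all treated with 1 µM ribociclib for 11 days, so that no untreated cells are included, and each composition gave 1 library. The authors' annotation splits the kept cells into 4 populations, named by lineage and culture. They were the sensitive monoculture with 3329 cells and the resistant one with 7557, and in coculture 2059 sensitive and 6292 resistant cells. Cells of a monoculture are also called cells grown alone.

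Cells make cholesterol from acetyl-CoA through the mevalonate pathway and then through squalene and lanosterol. When membranes run low in sterol, SCAP carries the precursors of the transcription factors SREBP1 and SREBP2 (genes SREBF1 and SREBF2) from the endoplasmic reticulum to the Golgi, where they are cut and released. The INSIG proteins hold SCAP back when sterol is plentiful. SREBP2 acts mainly on sterol genes and SREBP1 mainly on fatty acid genes, which build, desaturate, lengthen and activate fatty acids and are often active in luminal breast cancers.

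The promoters of 4 members are shown. HMGCS1 and SCD differed most from other cells among the sterol and the fatty acid genes of a small cluster. SCD and FADS1 had the highest ratios between populations. SREBF2 is shown only for its sequence: of the 30 members with a listed promoter, it alone held an exact match to the sterol element TCACNCCAC. Each is the RefSeq promoter on GRCh38.p14 (the first listed where there is more than 1), from 250 bases before to 50 after the start, written 5′ to 3′ on the gene's strand. Capitals mark a CCAAT box, read as CCAAT or ATTGG depending on the strand, or the sterol element TCACNCCAC. HMGCS1 lies at chr5:43313363-43313662 on the minus strand, SREBF2 at chr22:41832855-41833154 on the plus strand, SCD at chr10:100346983-100347282 on the plus strand and FADS1 at chr11:61816954-61817253 on the minus strand.
HMGCS1: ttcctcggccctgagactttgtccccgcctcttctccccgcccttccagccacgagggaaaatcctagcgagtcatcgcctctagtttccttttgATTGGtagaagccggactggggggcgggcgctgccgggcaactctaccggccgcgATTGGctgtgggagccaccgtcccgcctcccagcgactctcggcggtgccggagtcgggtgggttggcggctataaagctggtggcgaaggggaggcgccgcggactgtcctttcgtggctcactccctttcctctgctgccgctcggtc
SREBF2: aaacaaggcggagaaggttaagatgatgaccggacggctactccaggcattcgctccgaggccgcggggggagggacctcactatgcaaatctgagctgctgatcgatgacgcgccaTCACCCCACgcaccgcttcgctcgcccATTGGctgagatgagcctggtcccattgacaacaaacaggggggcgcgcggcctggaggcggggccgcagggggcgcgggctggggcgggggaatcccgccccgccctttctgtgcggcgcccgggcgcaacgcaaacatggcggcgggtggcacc
SCD: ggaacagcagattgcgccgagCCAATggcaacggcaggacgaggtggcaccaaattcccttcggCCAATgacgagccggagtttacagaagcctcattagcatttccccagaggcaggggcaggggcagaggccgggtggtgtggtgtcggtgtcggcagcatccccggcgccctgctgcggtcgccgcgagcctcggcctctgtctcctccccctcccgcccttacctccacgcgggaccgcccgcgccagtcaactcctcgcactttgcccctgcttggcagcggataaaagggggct
FADS1: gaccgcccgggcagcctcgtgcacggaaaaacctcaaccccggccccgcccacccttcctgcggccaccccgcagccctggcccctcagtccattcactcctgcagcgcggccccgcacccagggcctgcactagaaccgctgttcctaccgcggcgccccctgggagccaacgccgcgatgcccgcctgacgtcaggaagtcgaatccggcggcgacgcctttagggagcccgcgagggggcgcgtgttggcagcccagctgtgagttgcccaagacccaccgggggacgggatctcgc

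A promoter was listed for 30 of the 34 members, not for ACAT2, FDFT1, SQLE and FASN. For these counts a gene had a motif if any of its listed promoters held it, so genes with more promoters had more chances. On either strand, the CCAAT box was found for 22 of those 30 (73.3%), against 39.7% of the 27305 genes with a listed promoter. It was found for 12 of 14 sterol enzymes, 3 of 6 control genes and 7 of 10 fatty acid genes, and FADS1 was among those without it. TCACNCCAC was found for SREBF2 alone among the members and for 1.39% of all genes. The 2 motifs share no bases in the SREBF2 promoter. A match is a description of the letters in this window and no more. Only exact matches were sought, so a variant of either motif would not be found.

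The summed counts of the 4 populations ranged from 70896822 UMIs (unique molecular identifiers, 1 per captured molecule) in sensitive coculture to 270891547 in resistant monoculture. Levels are counts per 1000000 UMIs of the population (CPM). The reads came from the 3′ ends of transcripts, so 1 molecule gives 1 count whatever its length. With 1 library per condition and cells that are not replicates, no test across samples was possible. Intervals are 95% and cover counting error only, and a difference between libraries cannot be told apart from a difference between conditions. The comparison inside the coculture library is the exception, since both lineages came from 1 suspension. Log2 ratios were taken on CPM with a pseudocount of 1 for genes whose UMIs in both populations came to 50 or more. A gene is called higher or lower where that ratio was at least 0.5 in size, which is 1.41-fold on that scale. The shares over all genes include genes at lower levels than the tested members, whose ratios the pseudocount draws more strongly toward 0. Shares among genes at the members' own levels were not counted.

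All 7 luminal markers were present, with ESR1 at 14.2 to 20.2 CPM and a summed level of 7659 to 9605 CPM. Summed markers of leukocytes (0.822 to 1.64 CPM, nearly all CD14), fibroblasts (2.45 to 3.62 CPM, nearly all COL1A1) and endothelium (0.0701 to 0.301 CPM) were near 0. No kept sensitive cell had a UMI of mCherry and no kept resistant cell had one of mVenus. Cells were kept by their transgene UMIs, so this cannot show that the lineages were free of each other's RNA. The populations differed in other ways that bear on each ratio below. The median cell had 27622 UMIs in sensitive monoculture, the lowest of the 4, and 30686.5 to 35442 elsewhere. The median mitochondrial share was 20.9% in sensitive monoculture against 15.2% to 17.3% in the other populations. The share of cells called in S or G2/M was 11.0% in sensitive monoculture, 44.7% in the cocultured sensitive cells and 50.0% to 50.3% in the resistant cells. Annotated cells of different libraries shared 7 to 17 barcodes.

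A total of 30 members had at least 50 UMIs in every comparison between populations. The other 3 with a row were nearly absent. STARD4, which carries sterol between membranes, was at 0.0664 to 0.353 CPM. ELOVL6, an elongase, was at 0.0952 to 0.212 CPM. ME1, an enzyme that supplies NADPH, had 0 UMIs in both sensitive populations, which allows up to 3 counts, and 4 UMIs in all resistant cells (3 in coculture and 1 in monoculture).

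As a summed level, sterol enzyme transcripts made up 880 CPM (875 to 886) in sensitive cells alone, 892 CPM (885 to 899) in cocultured sensitive cells, 820 CPM (816 to 824) in cocultured resistant cells and 923 CPM (919 to 927) in resistant cells alone. The order of the summed levels therefore followed neither lineage nor culture. Fatty acid transcripts made up 358 CPM (355 to 362) in sensitive cells alone, 454 CPM (449 to 459) in cocultured sensitive cells, 421 CPM (419 to 424) in cocultured resistant cells and 412 CPM (410 to 415) in resistant cells alone. Sensitive monoculture was thus lowest and sensitive coculture highest for fatty acid transcripts. Control genes made up only 72.2 to 81.9 CPM. The order differed when UMIs were counted per cell: sensitive monoculture was lowest for both groups, with 25.5 sterol enzyme UMIs against 26.01 to 33.1 elsewhere and 10.4 fatty acid UMIs against 13.4 to 15.6.

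**Figure D1:**
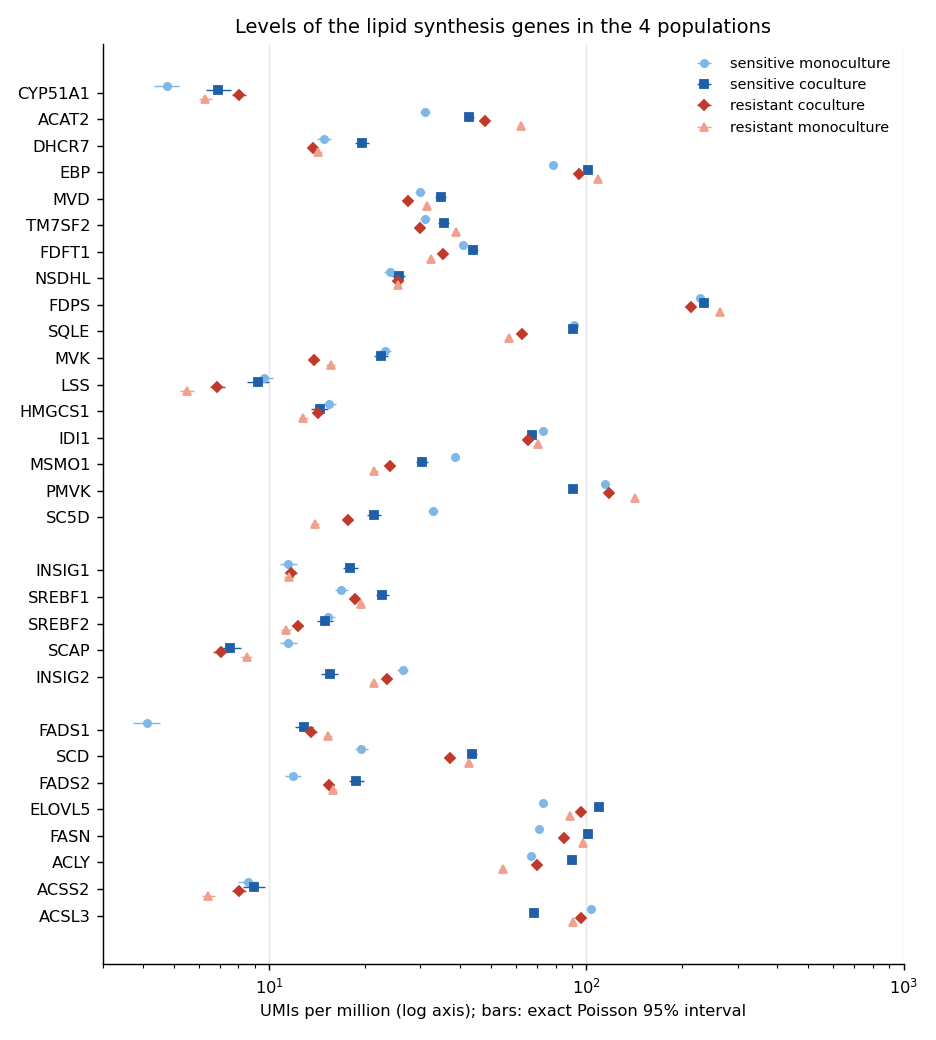
Level of each of the 30 members with at least 50 UMIs in the 4 populations (x axis: CPM, log axis; bars: exact Poisson 95% interval; symbols: populations). FADS1 in sensitive monoculture (4.11 CPM) sits far to the left of its other 3 values (12.9 to 15.3 CPM), while FDPS is the highest member in every population (214 to 265 CPM).

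The first comparison asked how sensitive cells grown beside resistant cells differed from sensitive cells grown alone. Most of the fatty acid members were higher in coculture and most sterol enzymes were not past the threshold. Of the 8 fatty acid genes tested, 5 were called higher (FADS1, SCD, FADS2, ELOVL5 and FASN) and 1 lower (ACSL3), where 6.81% of 12327 genes were called higher and 8.55% lower. Their median log2 ratio was 0.54 (0.51 to 0.57), against -0.05 over all genes. Of the 17 sterol enzymes, 0 were called higher and 1 lower (SC5D), with a median of 0.04 (0.01 to 0.07). The interval of a median, here and below, is the counting interval of its middle gene or genes. It does not measure the spread between members.

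FADS1, the desaturase that makes the last double bond of arachidonic acid, had 4.11 CPM in sensitive cells alone, 12.9 CPM in cocultured sensitive cells, 13.6 CPM in cocultured resistant cells and 15.3 CPM in resistant cells alone. Sensitive monoculture stood apart, and the other 3 populations lay close together. The coculture over monoculture log2 ratio of the sensitive cells was 1.44 (1.30 to 1.59), or 0.70 with a pseudocount of 10 CPM. SCD, which makes oleic acid from stearic acid, was at 19.5 CPM in sensitive cells alone, 43.8 CPM in cocultured sensitive cells, 37.3 CPM in cocultured resistant cells and 42.5 CPM in resistant cells alone. Its log2 ratio was 1.12 (1.04 to 1.20), or 0.86 with a pseudocount of 10 CPM and then above that of FADS1. Cocultured sensitive cells had a level of SCD above that of the resistant cells in the same library. The FADS1 and SCD promoters printed above differ in that SCD has 2 CCAAT boxes and FADS1 has none.

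FADS2, the desaturase that acts before FADS1 and lies next to it on chromosome 11, was at 11.9 CPM in sensitive cells alone, 18.8 CPM in cocultured sensitive cells, 15.5 CPM in cocultured resistant cells and 15.9 CPM in resistant cells alone. In cocultured sensitive cells it was the highest of the 4, and its log2 ratio was 0.62 (0.51 to 0.72), or 0.39 with a pseudocount of 10 CPM. ELOVL5, which lengthens the polyunsaturated products of FADS2, was at 72.9, 109, 95.9 and 88.9 CPM in the same order of populations, with a log2 ratio of 0.58 (0.53 to 0.62). Both FADS2 and ELOVL5 were lowest in sensitive monoculture. ELOVL2, another elongase of polyunsaturated fatty acids, is no member and had a different pattern, at 35.5 CPM in sensitive cells alone, 32.7 CPM in cocultured sensitive cells, 8.69 CPM in cocultured resistant cells and 7.18 CPM in resistant cells alone. FASN, the synthase that builds palmitate, was at 71.0 CPM in sensitive cells alone, 101 CPM in cocultured sensitive cells, 84.8 CPM in cocultured resistant cells and 97.9 CPM in resistant cells alone. Its log2 ratio was 0.51 (0.46 to 0.55), just past the threshold, and it was below 0.5 with a pseudocount of 10 CPM, in cells with 2 or more UMIs of their transgene, without the 10% of cells with most UMIs, under a mitochondrial share of 15% and as a mean over cells. ACLY, which makes cytosolic acetyl-CoA from citrate, had a ratio just inside the threshold, 0.43 (0.38 to 0.48), and ACSS2, which makes it from acetate, had 0.06 (-0.07 to 0.19).

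ACSL3, which activates long fatty acids and feeds lipid droplets, was the exception among the fatty acid genes. It was at 103 CPM in sensitive cells alone, 68.2 CPM in cocultured sensitive cells, 96.5 CPM in cocultured resistant cells and 90.6 CPM in resistant cells alone. Here sensitive coculture stood apart from the other 3 populations, and the log2 ratio was -0.59 (-0.64 to -0.54).

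**Figure D2:**
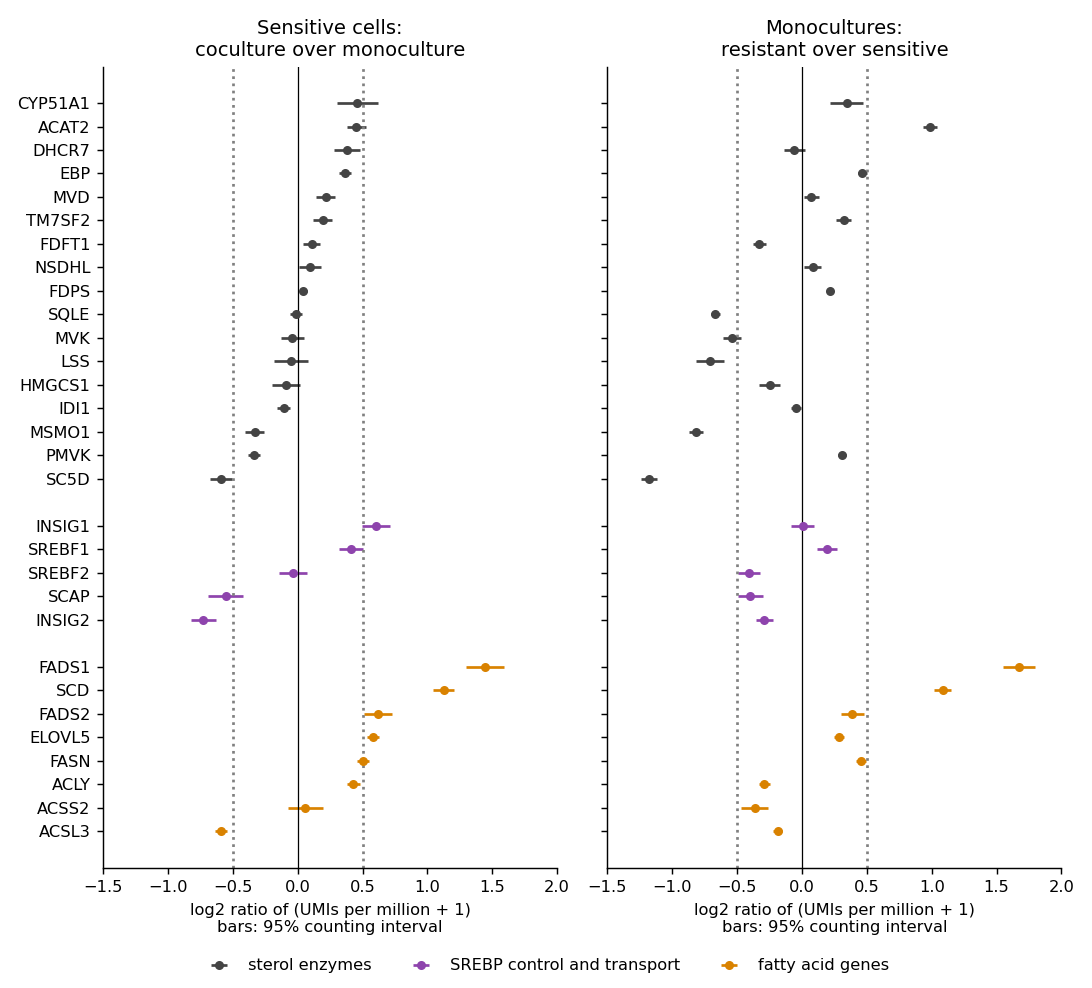
Log2 ratio of each of the 30 members (x axis: log2 ratio of CPM plus 1; bars: 95% counting interval; dotted lines: 0.5 and -0.5; colours: gene groups). At left, 5 fatty acid genes sit at or beyond 0.5 in cocultured over monocultured sensitive cells while the sterol enzymes centre on 0.04. At right, the sterol enzymes of the resistant over the sensitive monoculture spread from -1.18 (SC5D) to 0.99 (ACAT2).

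Among the genes that control the pathway, the INSIG pair went in opposite directions. INSIG1, which SREBP itself induces, was at 11.5 CPM in sensitive cells alone, 18.0 CPM in cocultured sensitive cells, 11.7 CPM in cocultured resistant cells and 11.5 CPM in resistant cells alone. Only cocultured sensitive cells stood apart, with a log2 ratio of 0.61 (0.50 to 0.71), or 0.38 with a pseudocount of 10 CPM. INSIG2, its paralog, was at 26.4 CPM, 15.5 CPM, 23.5 CPM and 21.4 CPM in the same order, which again set sensitive coculture apart, here as the lowest, with a log2 ratio of -0.73 (-0.82 to -0.63). SCAP, the escort of both SREBPs, was at 11.5 CPM in sensitive cells alone, 7.52 CPM in cocultured sensitive cells, 7.04 CPM in cocultured resistant cells and 8.49 CPM in resistant cells alone. It was highest in sensitive monoculture, with a log2 ratio of -0.55 (-0.69 to -0.42), and lost its call in G1 cells alone (-0.47), with a mitochondrial share under 15% (-0.42) and with a pseudocount of 10 CPM (-0.30).

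The 2 transcription factors differed. SREBF1 was at 16.9 CPM in sensitive cells alone, 22.8 CPM in cocultured sensitive cells, 18.6 CPM in cocultured resistant cells and 19.4 CPM in resistant cells alone. Its log2 ratio of 0.41 (0.31 to 0.50) was not past the threshold, although sensitive coculture was the highest population. SREBF2 was at 15.4 CPM, 15.01 CPM, 12.3 CPM and 11.3 CPM in the same order. Both sensitive populations lay above both resistant ones, but by less than the threshold. The resistant over sensitive log2 ratio was -0.41 between the monocultures and -0.26 in coculture. By culture, the sensitive cells differed by a log2 ratio of -0.03 (-0.14 to 0.07). In cycling cells of the monocultures SREBF2 was at 11.6 CPM in sensitive and 11.0 CPM in resistant cells. A transcript level says nothing of how much of either protein had been cut and released.

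SC5D, which adds a double bond to the sterol ring late in the pathway, was the sterol enzyme called lower. It was at 32.9 CPM in sensitive cells alone, 21.5 CPM in cocultured sensitive cells, 17.8 CPM in cocultured resistant cells and 14.0 CPM in resistant cells alone. The 4 levels fell in that order. The log2 ratio in sensitive cells was -0.59 (-0.68 to -0.51), or -0.42 in G1 cells and -0.45 with a pseudocount of 10 CPM. The other 16 enzymes had log2 ratios from -0.34 (PMVK, a kinase of the mevalonate pathway) to 0.46 (CYP51A1, which removes a methyl group from lanosterol). HMGCS1, which condenses acetoacetyl-CoA into the precursor of mevalonate, was at 15.4 CPM in sensitive monoculture and 14.5 CPM in sensitive coculture. FDPS, the synthase of farnesyl diphosphate, was at 227 CPM and 234 CPM.

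The mitochondrial share, the UMIs per cell and the share of cycling cells given above all moved with this comparison. In G1 cells alone (2963 in monoculture, 1138 in coculture) the same 5 fatty acid genes were called higher and ACSL3 lower, with a median of 0.55 (0.51 to 0.59), INSIG1 was called higher, INSIG2 lower and 0 sterol enzymes in either direction. The share over all genes there was 5.26% higher and 7.83% lower. The log2 ratio of SCD was 1.12 in G1, 1.68 in S and 1.37 in G2/M cells, and that of FADS1 was 1.26, 0.89 and 1.06. In cells with a mitochondrial share under 15% (461 in monoculture, 729 in coculture) the fatty acid median was 0.45 and 4 of the 8 were called higher. With 10% of the RNA of cocultured sensitive cells taken to be resistant coculture RNA and removed, the median was 0.56.

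The second comparison set the resistant against the sensitive monoculture. Sterol enzymes went both ways: 1 of 17 was called higher (ACAT2) and 5 lower (SC5D, MSMO1, LSS, SQLE and MVK), where 8.59% of 12970 genes were called higher and 15.9% lower. The higher genes were thus 35.1% of all calls, against 49.4% with edgeR's TMM scaling. The median of the sterol enzymes was -0.05 (-0.09 to -0.01) and changed sign, to 0.063, with that scaling, so no direction is given for the group. Of the 8 fatty acid genes, FADS1 and SCD were called higher and 0 lower, with a median of 0.34 (0.29 to 0.38), and the median over all genes was -0.07.

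ACAT2, the cytosolic thiolase that makes acetoacetyl-CoA at the top of the pathway, was at 30.9 CPM in sensitive cells alone, 42.7 CPM in cocultured sensitive cells, 48.0 CPM in cocultured resistant cells and 62.2 CPM in resistant cells alone. Over all cells the levels ran upward in that order. In G1 cells the order did not hold: cocultured sensitive cells were at 29.5 CPM and cocultured resistant cells at 27.9 CPM. Sensitive and resistant cells alone were at 25.3 and 36.2 CPM there. The resistant over sensitive log2 ratio of the monocultures was 0.99 (0.93 to 1.04), and it was 0.50 in G1 cells, at the threshold. EBP, a sterol isomerase, was just inside at 0.47 (0.43 to 0.50). It was 0.58 and called higher with TMM scaling, but 0.20 in G1 cells and 0.25 under a mitochondrial share of 15%.

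SQLE, which oxidises squalene, was at 91.2 CPM in sensitive cells alone, 90.5 CPM in cocultured sensitive cells, 62.7 CPM in cocultured resistant cells and 57.0 CPM in resistant cells alone. Both sensitive populations lay well above both resistant populations, and the monoculture ratio was -0.67 (-0.71 to -0.63). LSS, which closes squalene epoxide into lanosterol, was at 9.63, 9.24, 6.87 and 5.50 CPM in the same order, with a ratio of -0.71 (-0.81 to -0.61), which was -0.34 with a pseudocount of 10 CPM and then not past the threshold. MSMO1, which takes methyl groups off the sterol ring, was at 38.6 CPM in sensitive cells alone, 30.4 CPM in cocultured sensitive cells, 24.1 CPM in cocultured resistant cells and 21.4 CPM in resistant cells alone. Its ratio was -0.82 (-0.87 to -0.76), with each population below the one before.

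SC5D had the lowest ratio of all members, -1.18 (-1.24 to -1.11). MVK, the first kinase on mevalonate, was at 23.2 CPM in sensitive cells alone, 22.6 CPM in cocultured sensitive cells, 13.8 CPM in cocultured resistant cells and 15.6 CPM in resistant cells alone. Like SQLE it split by lineage, and its ratio was -0.54 (-0.61 to -0.47), which was above -0.5 with TMM scaling, with a pseudocount of 10 CPM and outside cluster 12 (described below). FDFT1, which makes squalene and stands between FDPS and SQLE, had a ratio of -0.33 (-0.38 to -0.28), while FDPS had 0.22 (0.20 to 0.24) and PMVK 0.31 (0.28 to 0.34). Among the other late enzymes CYP51A1 had 0.34, TM7SF2 0.32, NSDHL 0.08 and DHCR7 -0.06. In the control group 0 of 5 were called, and the nearest to the threshold were SREBF2 at -0.41 (-0.49 to -0.33) and SCAP at -0.40 (-0.49 to -0.30).

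Among the fatty acid genes the monoculture log2 ratio was 1.67 (1.55 to 1.79) for FADS1 and 1.08 (1.02 to 1.15) for SCD. With a pseudocount of 10 CPM these were 0.84 and 0.83. FASN had 0.46 (0.42 to 0.49), which was past the threshold with TMM scaling (0.57), with totals without mitochondrial and ribosomal protein genes (0.50) and outside cluster 12 (0.52), and was 0.31 under a mitochondrial share of 15%. FADS2 had 0.39 (0.30 to 0.47) and ELOVL5 had 0.28 (0.25 to 0.32). ACLY, ACSS2 and ACSL3 were on the other side of 0, at -0.29 (-0.33 to -0.25), -0.37 (-0.47 to -0.26) and -0.19 (-0.22 to -0.15). The comparison shares its sensitive monoculture cells with the first one, so the likeness of FADS1 and SCD in both is not independent. In G1 cells the same 3 members were called higher and the same 5 lower, where 7.44% of genes were called higher and 17.2% lower.

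Inside the coculture library, resistant cells were set against sensitive cells that had shared their spheroids and their library. Sterol enzymes lay mostly lower in the resistant cells: 14 of 17 had a ratio below 0 and the median was -0.24 (-0.31 to -0.18), against 0.00 over all genes. MVK at -0.67 (-0.75 to -0.58) and SQLE at -0.52 (-0.57 to -0.48) were called lower and 0 were called higher, where 3.17% of genes were called higher and 5.41% lower. DHCR7, which makes cholesterol in the last step of the pathway, was just inside at -0.49 (-0.58 to -0.40). In G1 cells it was past the threshold, at 13.0 CPM in resistant and 19.2 CPM in sensitive cells. The fatty acid median was -0.21 (-0.24 to -0.17) with 0 of 8 called. INSIG1 was called lower at -0.58 (-0.67 to -0.49), INSIG2 was called higher at 0.57 (0.48 to 0.66) and ACSL3 was just inside at 0.49 (0.45 to 0.54). No other pseudocount or scaling was run for this comparison. Whether the calls of MVK, SQLE, INSIG1 and INSIG2 hold under a larger pseudocount was therefore not tested.

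In resistant cells, coculture and monoculture differed little. None of the 30 members was called in either direction, where 1.59% of 13156 genes were called higher in coculture and 0.0988% lower. The member ratios ran from -0.37 (ACAT2 and TM7SF2, a sterol reductase) to 0.35 (ACLY). The medians of the sterol enzymes, the control genes and the fatty acid genes were -0.05 (-0.12 to 0.02), 0.02 (-0.05 to 0.09) and 0.03 (-0.01 to 0.06).

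Within each population, cycling cells (S or G2/M) were set against G1 cells. Among the members only ACAT2, EBP and FADS1 were called higher in cycling cells, each in all 4 populations. No other pseudocount was run for these ratios, which bears most on FADS1, the lowest of the 3 in level. Over all genes, 9.70% were called higher in sensitive cells alone and 7.19% in cocultured sensitive cells. In cocultured resistant cells and resistant cells alone it was 6.18% and 6.45%. With 3 members called, the count is not read as a trait of the group. ACAT2 was at 25.3 CPM in G1, 59.3 CPM in S and 71.2 CPM in G2/M of sensitive monoculture, and at 36.2, 83.2 and 89.3 CPM in resistant monoculture. EBP was at 71.4, 108 and 133 CPM in the 3 phases of sensitive monoculture and at 82.1, 127 and 140 CPM in resistant monoculture. FADS1 was at 3.52 CPM in G1, 7.86 CPM in S and 7.67 CPM in G2/M of sensitive monoculture, so that its level in cycling sensitive monoculture cells was still below that of G1 cells in the other populations (9.85 to 11.9 CPM). The resistant over sensitive log2 ratio of the monocultures in G1 cells alone was 0.50 for ACAT2, 0.20 for EBP and 1.51 for FADS1, against 0.99, 0.47 and 1.67 in all cells.

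Called lower in cycling cells were ACSL3, INSIG2, MSMO1 and SCD in sensitive monoculture, SC5D in sensitive coculture and 0 members in the resistant populations. The shares over all genes called lower were 8.27% in sensitive cells alone, 2.80% in cocultured sensitive cells, 1.64% in cocultured resistant cells and 1.35% in resistant cells alone. SREBF2 was at 16.0 CPM in G1, 10.6 CPM in S and 12.6 CPM in G2/M of sensitive monoculture, and between 10.9 and 11.7 CPM in all phases of resistant monoculture. Whether this difference in phase pattern exceeds what another library would give was not tested.

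**Figure D3:**
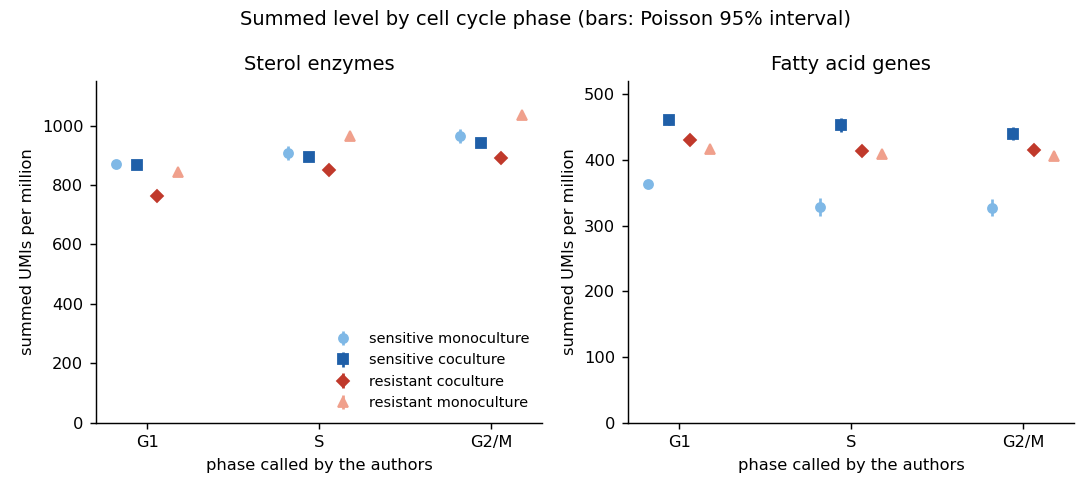
Summed level of the 17 sterol enzymes (left) and the fatty acid genes (right) by phase and population (y axis: CPM; bars: Poisson 95% interval; symbols: populations). Sterol enzyme sums are higher in G2/M than in G1 in each population, for example 843 against 1037 CPM in resistant monoculture, although most single enzymes have cycling over G1 ratios below 0 in the other 3 populations. Fatty acid sums of sensitive monoculture (327 to 363 CPM) lie below those of the other populations (406 to 461 CPM) in each phase.

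The summed sterol level went from 871 CPM in G1 to 907 CPM in S and 966 CPM in G2/M of sensitive monoculture, and from 762 to 849 and 892 CPM in resistant coculture. The fatty acid sum went the other way in sensitive monoculture, from 363 CPM in G1 to 328 CPM in S and 327 CPM in G2/M. In sensitive coculture it was 461, 453 and 439 CPM. The sterol sum did not move as its members did. Of the 17 enzymes, the cycling over G1 log2 ratio was below 0 for 12 in sensitive cells alone, 12 in cocultured sensitive cells, 10 in cocultured resistant cells and 8 in resistant cells alone, with medians of -0.08, -0.08, -0.07 and 0.00. In sensitive monoculture ACAT2 was at 25.3 CPM in G1 and 65.4 CPM in cycling cells, EBP at 71.4 and 121 CPM, and FDPS at 222 and 262 CPM, and these differences added together exceed that of the sum.

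One of the authors' clusters, cluster 12, had high levels of most members. It held 156 of 3329 sensitive monoculture cells (4.69%), of which 155 were called G1, 27 of 2059 sensitive coculture cells (1.31%) and 1 cell of each resistant population. Clustering used the genes of these cells, so the values are a description with no test. Against the other sensitive monoculture cells, 21 of the 30 members were higher by at least 0.5 in log2 and 1 (SC5D) was lower, where 13.8% of 11748 genes were higher by as much and 13.6% lower. The median log2 ratio was 0.79 for sterol enzymes, 0.95 for control genes and 0.94 for fatty acid genes. The sterol enzyme sum was 1414 CPM against 858 CPM, the control sum 141 against 79.4 CPM and the fatty acid sum 641 against 346 CPM.

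SCD was at 100.2 CPM in cluster 12 and 16.1 CPM in the other sensitive monoculture cells, a log2 ratio of 2.56 (2.40 to 2.72). HMGCS1 was at 43.4 CPM against 14.2 CPM, a ratio of 1.54 (1.32 to 1.77). SREBF1 was at 36.7 against 16.1 CPM, SREBF2 at 27.5 against 14.9 CPM and INSIG1 at 22.3 against 11.1 CPM. The sums of the sterol, control and fatty acid groups were each higher in the cluster than in the other cells.

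FADS1 did not share the pattern. It was at 3.85 CPM in cluster 12 and 4.13 CPM in the other sensitive monoculture cells, a ratio of -0.08 (-0.67 to 0.51), although with a pseudocount of 1 CPM it had the highest ratio of all members between populations. ELOVL5 was at 0.17, and SC5D at -0.61 (-0.91 to -0.31). The genes that led the cluster were SCGB2A2 (mammaglobin), at 698 against 1.02 CPM, S100P and PLA2G2A, and the heat shock gene HSPA1A was at 870 against 325 CPM. The median cell of the cluster had 24248 UMIs against 27883 in the others, and a mitochondrial share of 19.99% against 20.9%. Whether stress or depth had a part in the lipid gene levels was not tested.

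**Figure D4:**
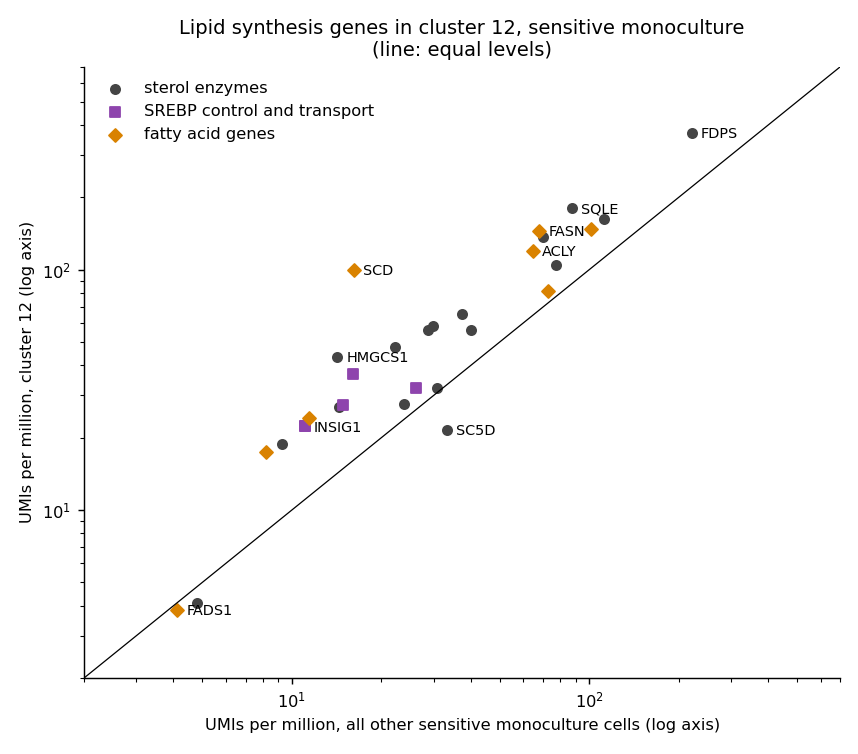
Level of each tested member in cluster 12 (y axis) and in all other sensitive monoculture cells (x axis), both in CPM on log axes, with the line of equal levels and colours for gene groups. SCD lies farthest above the line (100.2 against 16.1 CPM), FADS1 lies on it and SC5D below it (21.6 against 33.4 CPM).

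In the 27 cluster 12 cells of sensitive coculture the sums were 1581 CPM for sterol enzymes, 148 CPM for control genes and 913 CPM for fatty acid genes, against 885, 78.5 and 449 CPM in the other cocultured sensitive cells. SCD was at 201 CPM against 42.2 CPM and SQLE at 254 CPM against 88.9 CPM. FADS1 had 3 UMIs there, 4.22 CPM against 13.0 CPM. Outside cluster 12, the fatty acid median of the first comparison was 0.57 and the sterol median 0.073.

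**Figure D5:**
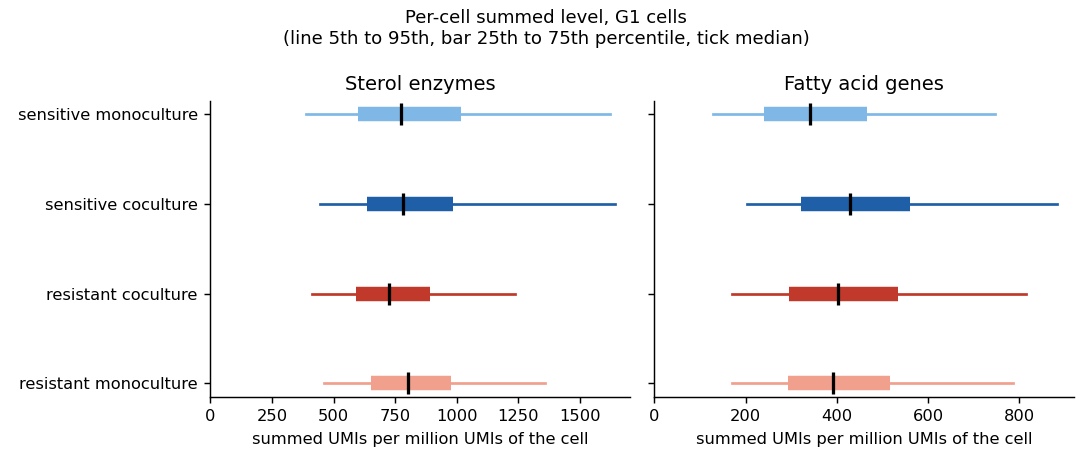
Summed level per G1 cell of the sterol enzymes (left) and the fatty acid genes (right) in the 4 populations (x axis: CPM of the cell; line: 5th to 95th percentile; bar: 25th to 75th percentile; tick: median). The sterol medians lie close together (726 to 803 CPM), but the 95th percentile reaches 1621 and 1643 CPM in the sensitive populations and 1237 and 1358 CPM in the resistant ones.

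Cells also varied within a population. Among G1 cells, the coefficient of variation of the sterol enzyme sum beyond counting noise was 48.4% in sensitive cells alone and 42.4% in cocultured ones, against 30.9% in cocultured resistant cells and 31.3% in resistant cells alone. Without cluster 12 the sensitive values were 46.0% and 39.9%, so the wider spread of the sensitive cells was not that of the cluster alone. For fatty acid genes the coefficient was 42.1%, 40.6%, 39.6% and 37.7% in the same order, and without cluster 12 it was 35.5% and 34.5% in the sensitive populations. The spread of the fatty acid sum in sensitive cells was then below that of the resistant cells. The removal was uneven, however. It took 155 and 26 G1 cells of a cluster with high fatty acid sums from the sensitive populations, and 1 from each resistant population. The changed order is therefore not read as a trait of the sensitive cells.

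The sterol and fatty acid sums went together across G1 cells: Pearson's r was 0.34 over 2963 sensitive monoculture cells, 0.40 over 1138 sensitive coculture cells, 0.23 over 3125 resistant coculture cells and 0.23 over 3781 resistant monoculture cells. Without cluster 12, r was 0.25 and 0.36 in the sensitive populations. The cells of a population share a library, both sums are shares of the same UMI total and counting noise lowers r, so these values describe the cells only.

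Other genes of the pathways, listed with no regard to how they moved but with earlier results known, were counted in the same way. As given above, 6.81% of all genes were called higher and 8.55% lower in cocultured sensitive cells, and 8.59% and 15.9% between the monocultures, and lists this short hold too few genes for a share to be set firmly against these. Of 13 further sterol genes tested, 3 were called higher (LBR, SOAT1 and SOAT2) and 1 lower (MYLIP) in cocultured sensitive cells, with a median of 0.00. Between the monocultures 1 was called higher (AACS) and 3 lower (MYLIP, NPC2 and SOAT1). MYLIP, a ubiquitin ligase, was at 52.3 CPM in sensitive monoculture, 28.3 CPM in sensitive coculture and 16.4 CPM in resistant monoculture.

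Of the 4 genes of the LXR pathway, which exports sterol, NR1H3 was called higher in both comparisons and ABCA1 lower between the monocultures. Of 22 further fatty acid genes tested, 2 were called higher (PNPLA3 and SLC25A1, the citrate carrier) and 3 lower (ACSL1, DBI and HACD2) in cocultured sensitive cells, and 2 higher and 8 lower between the monocultures. DBI, which binds acyl-CoA, was at 1097 CPM in sensitive monoculture, 597 CPM in sensitive coculture and 411 CPM in resistant monoculture. Of 7 genes of fatty acid oxidation tested, 0 were called higher and 1 lower (HADHB) in cocultured sensitive cells. Between the monocultures 0 were called higher and 3 lower (HADHB, HADHA and PPARA). HADHB, a subunit of the mitochondrial trifunctional protein, was at 80.7 CPM in sensitive and 33.2 CPM in resistant monoculture.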

How the data were processed

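Per the study's methods, the authors made 10x Genomics 3′ libraries and counted UMIs with Cell Ranger 3.0.2 on GRCh37. The deposited values are those counts, not normalized, for each gene in each barcode. The deposited annotation of kept cells gave the mitochondrial percent, phase, cluster and population, and 12 of its columns were not used. The methods state that predicted doublets were removed and that kept cells had at least 2 UMIs of a transgene. In the annotation 1314 of 3329 sensitive monoculture cells met the latter, and no doublet caller was run here.

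Rows with no symbol (0.523% to 0.591% of UMIs) were left out. For each population the UMIs of its annotated cells were added up and given as CPM with exact Poisson intervals. Log2 ratios (pseudocount 1 CPM, at least 50 UMIs) carry delta-method counting intervals, and a list's median carries that of its middle genes. The scripts were tested on simulated data. The members, lists and comparisons were chosen with earlier results of these data known. Named with all 4 values are the members past 0.5 in log2 in either of the first 2 comparisons, and SREBF1, SREBF2, SCAP and INSIG1. The promoters shown, cluster 12 and the genes named within it or in the other pathway lists were picked with values in view. Some genes of the sterol and fatty acid oxidation lists are not reported here, and the counts leave them out.

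Of the 33 members with a position in GENCODE 44 on GRCh37, 5 have exons that overlap another gene on the same strand (CYP51A1, TM7SF2, EBP, FADS1 and FADS2). Another 5, CYP51A1 again among them, have annotated pseudogenes of their name (IDI1, FDPS, CYP51A1, SCD and ACSL3). Reads that match more than 1 gene could have affected these counts. How such reads were counted was not checked, and the authors' gene annotation may differ from GENCODE 44. The TMM alternative took its factors from edgeR 4.0.16 (R 4.3.3), with no test. Python 3.11.15 with pandas 2.3.3, scipy 1.17.1 and numpy 2.4.6 did the rest.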

Additional observations from a re-analysis of the deposited data

How the results depend on the processing

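No paired analysis was possible because each condition has 1 library. No result changed from a called value to the opposite sign under any of the alternatives run.

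The sterol median of cocultured over monocultured sensitive cells was 0.04, and became 0.087 with totals without mitochondrial and ribosomal protein genes, -0.095 in cells with a mitochondrial share under 15% and 0.073 outside cluster 12, an alternative chosen after seeing the data. The count of sterol enzymes called higher there went from 0 to 1 (CYP51A1 or ACAT2) with a pseudocount of 0.1 CPM, with those totals, with 2 or more UMIs of the own transgene, without the 10% of cells with most UMIs, under 15% mitochondrial share and as a mean of per-cell CPM, and the count called lower went from 1 to 0 with a pseudocount of 10 CPM and in G1 cells. The fatty acid median, 0.54, was 0.43 with a pseudocount of 10 CPM (3 called higher in place of 5), 0.59 with those totals, 0.51 with at least 10 UMIs, which added ELOVL6, and 0.45 under 15% mitochondrial share.

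Between the monocultures the sterol median, -0.05, was 0.063 with TMM scaling, -0.0067 with those totals and 0.0054 outside cluster 12. The sterol enzymes called higher went from 1 to 2 with TMM scaling, with those totals and with 2 or more UMIs of the own transgene, and those called lower from 5 to 3 with a pseudocount of 10 CPM. The fatty acid median, 0.34, was 0.25 with a pseudocount of 10 CPM, 0.44 with TMM scaling, 0.28 with at least 10 UMIs and 0.27 under 15% mitochondrial share, where 1 gene (ACSS2) was called lower in place of 0. FADS1, SCD, ELOVL5, ACSL3 and INSIG2 kept their calls in sensitive cells under every alternative run, and FADS1, SCD, ACAT2, SC5D, MSMO1 and SQLE kept theirs between the monocultures. Depth limits ELOVL6, STARD4 and ME1, which had under 50 UMIs in each comparison and were not called. One library per condition limits every other value, and no interval here covers the spread between libraries.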
